A study of Mus musculus with 15 samples.

Results

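The miR-322 to miR-450b cluster is a group of microRNA hairpins on the mouse X chromosome, and 10 of its mature strands are described here in whole lung. The members are the rows of the deposited table named mmu-miR-322-5p, mmu-miR-322-3p, mmu-miR-503-5p, mmu-miR-351-5p, mmu-miR-351-3p, mmu-miR-542-5p, mmu-miR-542-3p, mmu-miR-450a-5p, mmu-miR-450b-5p and mmu-miR-450b-3p, written below without the species prefix. All 10 listed names were found among the 1424 mature miRNAs of the table, and all 10 passed a filter on low values that left 818. The cluster was picked with earlier results of these libraries known, among them a lower level of miR-351-5p after bleomycin in both genotypes. The bleomycin against PBS values of the members are therefore given as a description without a test, and only the comparisons of genotype are tested.

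Small RNA was sequenced from the lungs of 15 C57BL/6 mice aged 11 weeks. The groups were R213G mice given bleomycin (n = 4), WT mice given bleomycin (n = 4), R213G mice given PBS (n = 4) and WT mice given PBS (n = 3). R213G mice are homozygous for a variant of extracellular superoxide dismutase (EC-SOD), an antioxidant enzyme secreted into the matrix around cells. Bleomycin, a drug that breaks DNA and injures the lung, was instilled into the trachea once at 1 U/mL in a volume of 100 uL, and the PBS groups received the carrier alone. Lungs were perfused through the heart and taken at day 7. Mice of both sexes were used, with the sex of each library not given, and the labels do not say beyond the replicate numbers that each library is a separate animal. The p-values therefore measure the spread between these libraries. Values are log2 of 1 plus a normalised read count, called here the equalized count (a reading taken from the values; the labels mention RPKM), which summed to between 18087290 and 24759615 per library.

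A microRNA is cut from a hairpin precursor, and either arm of the hairpin (5p or 3p) can be loaded into an Argonaute protein, where bases 2 to 8, the seed, choose the messenger RNAs to be repressed. Hairpins of a cluster are commonly cut from a shared primary transcript. The miR-322 and miR-503 strands are best known for holding cells out of the cell cycle, since they repress cyclins and the phosphatase Cdc25a and are induced when myoblasts leave the cycle and form muscle. In the pulmonary circulation the human counterparts, miR-424 and miR-503, restrain growth factor signalling in vascular cells.

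The 7 hairpins span 6353 bp of the minus strand at chrX:53047997-53054349 (RefSeq miRNA table, build GRCm38.p6). Along the direction of transcription the order is Mir322, Mir503, Mir351, Mir542, Mir450-2, Mir450-1 and Mir450b. In GENCODE M21 each hairpin is its own miRNA gene and 0 of the 7 overlap another gene. The noncoding gene C430049B03Rik lies just before Mir322 on the same strand, the lincRNA Gm28730 lies between Mir351 and Mir542, and RefSeq lists mir-322, mir-351 and mir-503 among the synonyms of C430049B03Rik.

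The mature strands are shown because the seed sets the family of each, and the capitals mark bases 2 to 8 counted from the 5′ end. All 10 members had a RefSeq sequence.
miR-322-5p: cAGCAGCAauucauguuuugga
miR-322-3p: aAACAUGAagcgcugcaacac
miR-503-5p: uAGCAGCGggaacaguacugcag
miR-351-5p: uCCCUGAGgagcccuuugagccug
miR-351-3p: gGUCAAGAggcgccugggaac
miR-542-5p: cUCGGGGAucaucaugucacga
miR-542-3p: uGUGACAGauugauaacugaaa
miR-450a-5p: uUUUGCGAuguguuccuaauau
miR-450b-5p: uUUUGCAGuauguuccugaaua
miR-450b-3p: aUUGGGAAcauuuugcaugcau

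The 10 members carry 10 different seeds. The seeds of miR-322-5p and miR-503-5p share their first 6 bases. miR-450a-5p can be cut from 2 hairpins, Mir450-1 and Mir450-2, whose reads cannot be told apart, and miR-450b-3p shares its first 18 bases with miR-450a-1-3p, so reads of those strands could be split in an uncertain way. A pair of hairpins is shown whole because the arms behaved differently in them, with the mature 5p strand and then the 3p strand in capitals.
Mir322: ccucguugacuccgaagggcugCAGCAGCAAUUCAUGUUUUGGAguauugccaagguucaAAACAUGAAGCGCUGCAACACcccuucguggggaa
Mir542: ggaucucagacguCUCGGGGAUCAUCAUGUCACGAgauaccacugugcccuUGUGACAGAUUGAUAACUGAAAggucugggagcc

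Members of the cluster stood at lower levels after bleomycin than after PBS in both genotypes, and the size differed between hairpins and between the arms of a hairpin. In R213G lungs the median log2 difference (bleomycin minus PBS) of the 10 members was -0.71, against 0.05 for the 818 tested miRNAs. In WT lungs it was -0.71, against 0.05. The differences ran between -1.34 and -0.06 in R213G lungs and between -1.36 and -0.27 in WT lungs, below 0 for 10 of 10 members in each. In R213G lungs 8 of 10 members had every bleomycin library below every PBS library, where 17.4% of all tested miRNAs had this. In WT lungs it was also 8 of 10, against 13.6% of all tested miRNAs, and the same 8 members did so in both genotypes. Since the cluster was chosen on this contrast, nothing is read from these counts. The lung is a mixture of cell types, and fewer cells of a type cannot be told apart from less RNA per cell.

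**Figure D1:**
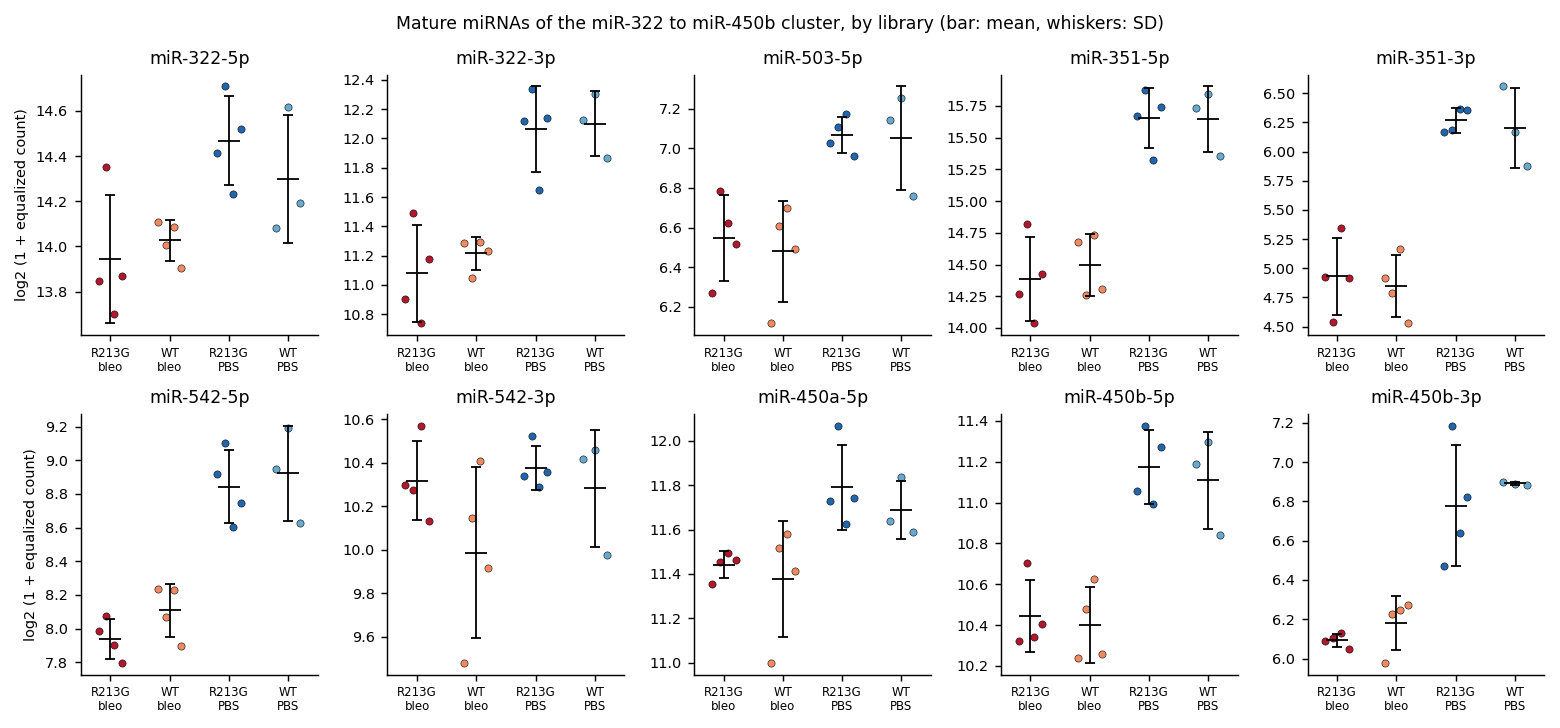
Log2 of 1 plus the equalized count (vertical axis, own scale in each panel) of the 10 members in every library, with R213G bleomycin, WT bleomycin, R213G PBS and WT PBS from left to right; points are libraries, bars are means and whiskers SD. In 8 panels all bleomycin points lie under the PBS points of the same genotype, while miR-322-5p and miR-542-3p overlap.

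The Mir322 hairpin, the first of the cluster, gave a cell-cycle arrest strand whose groups overlapped and a partner strand that was lower without overlap. miR-322-5p, a member of the miR-15/16 seed family and the mouse counterpart of human miR-424, stood at 13.85, 14.35, 13.70 and 13.87 in R213G bleomycin lungs and at 14.42, 14.71, 14.23 and 14.52 in R213G PBS lungs. The WT libraries stood at 14.11, 14.00, 14.09 and 13.91 after bleomycin and at 14.08, 14.62 and 14.19 after PBS. The groups overlapped in both genotypes: R213G bleomycin replicate 2, at 14.35, lay above R213G PBS replicate 3, and WT PBS replicate 1 lay within the range of the WT bleomycin libraries. The log2 difference was -0.53 ± 0.14 (SE) in R213G lungs and -0.27 ± 0.16 (SE) in WT lungs, where it was -0.11 without WT PBS replicate 2.

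The other arm, miR-322-3p, stood at 10.90, 11.49, 10.74 and 11.18 in R213G bleomycin lungs and at 12.12, 12.34, 11.65 and 12.14 in R213G PBS lungs. WT lungs had 11.29, 11.05, 11.29 and 11.23 after bleomycin and at 12.13, 12.31 and 11.87 after PBS. Here the groups did not overlap in either genotype. The level after bleomycin was 50.5% of that after PBS in R213G lungs (log2 difference -0.98 ± 0.17, SE) and 54.2% in WT lungs (-0.88 ± 0.18, SE).

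From the next hairpin, miR-503-5p, which shares with miR-322-5p the repression of cyclins and Cdc25a, was a scarce strand with a mean of 93.4 equalized counts in R213G bleomycin lungs and 133.3 in R213G PBS lungs. On the log2 scale it lay between 6.27 and 6.79 after bleomycin and between 6.96 and 7.17 after PBS in R213G lungs, without overlap. In WT lungs it lay between 6.12 and 6.70 after bleomycin and between 6.76 and 7.26 after PBS, where WT PBS replicate 3 was close to the bleomycin libraries. The differences were -0.52 ± 0.16 (SE) in R213G lungs and -0.57 ± 0.17 (SE) in WT lungs. The arm that is not a member, miR-503-3p, was the more abundant product of the hairpin, and its differences were -0.52 ± 0.11 (SE) in R213G lungs and -0.66 ± 0.12 (SE) in WT lungs.

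Both arms of Mir351 stood lowest against PBS. miR-351-5p, a rodent miRNA that carries the seed of the miR-125 family and has been linked in mice to muscle progenitor growth and to liver fibrosis, was the most abundant member. It stood at 14.26, 14.82, 14.04 and 14.43 in R213G bleomycin lungs and at 15.67, 15.88, 15.32 and 15.74 in R213G PBS lungs. Among WT lungs the values were 14.68, 14.26, 14.74 and 14.31 after bleomycin and at 15.74, 15.85 and 15.36 after PBS. The lowest PBS library of either genotype, R213G PBS replicate 3 at 15.32, was above the highest bleomycin library, R213G bleomycin replicate 2 at 14.82. The level after bleomycin was 41.6% of that after PBS in R213G lungs (log2 difference -1.27 ± 0.17, SE) and 45.0% in WT lungs (-1.15 ± 0.18, SE). With quantile normalization the WT difference was -0.71.

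The scarce arm miR-351-3p lay at a mean of 30.1 equalized counts in R213G bleomycin lungs and 76.2 in R213G PBS lungs. In WT lungs its means were 28.2 after bleomycin and 74.1 after PBS. On the log2 scale its R213G libraries lay between 4.54 and 5.35 after bleomycin and between 6.16 and 6.37 after PBS. The WT libraries lay between 4.53 and 5.16 after bleomycin and between 5.88 and 6.56 after PBS. The groups were apart in both genotypes, with differences of -1.34 ± 0.20 (SE) in R213G lungs and -1.36 ± 0.22 (SE) in WT lungs.

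The Mir542 hairpin, further down the cluster, gave one arm that was lower after bleomycin and one whose libraries overlapped. miR-542-5p stood at 7.99, 8.07, 7.90 and 7.80 in R213G bleomycin lungs and at 8.92, 9.11, 8.61 and 8.75 in R213G PBS lungs. The WT libraries held 8.24, 8.07, 8.23 and 7.90 after bleomycin and at 8.95, 9.19 and 8.63 after PBS. All bleomycin libraries lay under all PBS libraries, with differences of -0.90 ± 0.14 (SE) in R213G lungs and -0.81 ± 0.15 (SE) in WT lungs.

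Its partner miR-542-3p, known in human cells as a repressor of the cell division protein survivin, stood at 10.30, 10.27, 10.57 and 10.13 in R213G bleomycin lungs and at 10.34, 10.52, 10.29 and 10.36 in R213G PBS lungs. WT lungs stood at 9.48, 10.15, 10.41 and 9.92 after bleomycin and at 10.42, 10.46 and 9.97 after PBS. The groups overlapped in both genotypes, and the lowest of the 15 libraries was WT bleomycin replicate 1. The differences were -0.06 ± 0.17 (SE) in R213G lungs and -0.30 ± 0.18 (SE) in WT lungs. Without R213G bleomycin replicate 4 the R213G value was 0.0042, with quantile normalization it was -0.20, and without WT bleomycin replicate 1 the WT value was -0.13.

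The Mir450 hairpins close the cluster. miR-450a-5p lay between 11.35 and 11.49 in R213G bleomycin lungs and between 11.63 and 12.07 in R213G PBS lungs, without overlap. WT lungs lay between 11.00 and 11.58 after bleomycin and between 11.59 and 11.84 after PBS. In WT the highest bleomycin library and the lowest PBS library were only 0.0081 apart. The differences were -0.35 ± 0.13 (SE) in R213G lungs and -0.31 ± 0.14 (SE) in WT lungs, where the value was -0.18 without WT bleomycin replicate 1.

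miR-450b-5p lay between 10.32 and 10.70 in R213G bleomycin lungs and between 10.99 and 11.38 in R213G PBS lungs, a difference of -0.73 ± 0.13 (SE). Its WT libraries lay between 10.24 and 10.63 after bleomycin and between 10.84 and 11.30 after PBS, a difference of -0.71 ± 0.14 (SE). The 3p arm, miR-450b-3p, differed by -0.69 ± 0.15 (SE) in R213G lungs and -0.71 ± 0.16 (SE) in WT lungs. Its libraries lay between 6.05 and 6.13 in R213G bleomycin lungs and between 6.47 and 7.19 in R213G PBS lungs, and between 5.98 and 6.27 in WT bleomycin lungs and between 6.89 and 6.90 in WT PBS lungs.

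**Figure D2:**
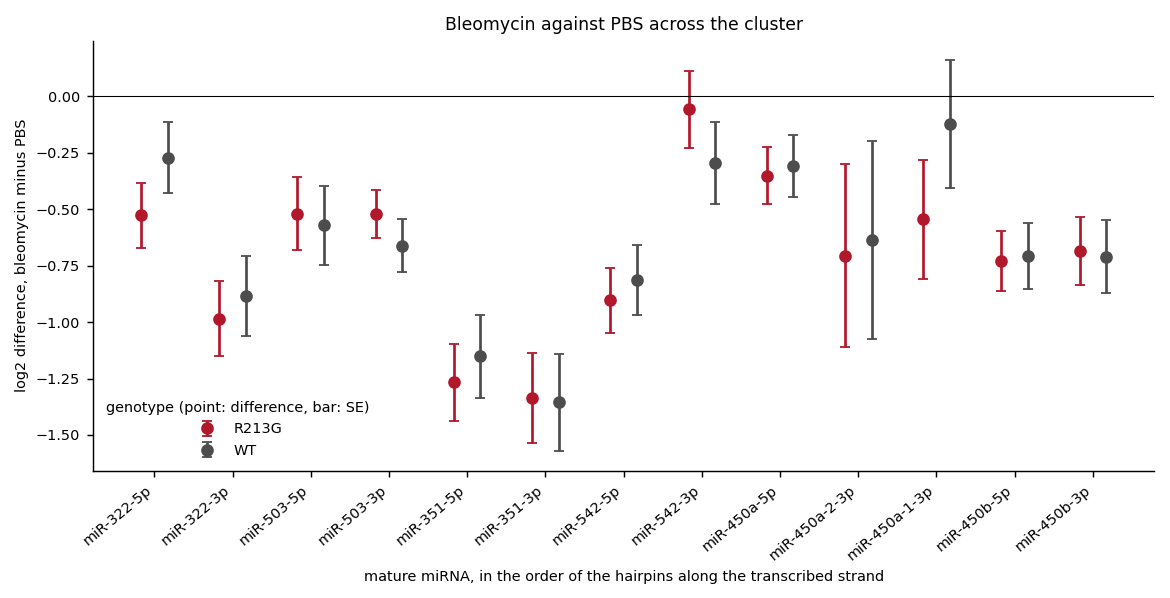
Log2 difference (bleomycin minus PBS, vertical axis) of the 10 members and the 3 other mature strands of the locus, in the order of the hairpins along the transcribed strand; points are R213G (left) and WT (right), bars are SE. The strands of Mir351 lie lowest, at -1.36 to -1.15 over both genotypes, and miR-542-3p lies nearest to 0 in R213G lungs.

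The other strands of the locus in the table, miR-503-3p, miR-450a-1-3p and miR-450a-2-3p, were also lower after bleomycin on average in both genotypes. The libraries of miR-503-3p did not overlap, at 9.05 to 9.24 in R213G bleomycin lungs and 9.48 to 9.80 in R213G PBS lungs, and at 8.86 to 9.22 in WT bleomycin lungs and 9.58 to 9.71 in WT PBS lungs. miR-450a-1-3p, with means of 15.4 equalized counts in R213G bleomycin lungs and 22.7 in R213G PBS lungs, and miR-450a-2-3p, with 7.27 and 12.1, had bleomycin and PBS libraries that overlapped in both genotypes.

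Together the 10 members made up a small share of the library, and that share was lower after bleomycin. They held 0.180% to 0.311% of the equalized counts in R213G bleomycin lungs and 0.324% to 0.453% in R213G PBS lungs. In WT lungs they held 0.216% to 0.253% after bleomycin and 0.343% to 0.394% after PBS. Within the cluster, miR-351-5p supplied 47.3% ± 2.3 (SD, n = 4) of the members' sum in R213G bleomycin lungs and 59.6% ± 1.2 (SD, n = 4) in R213G PBS lungs, and 48.4% ± 3.4 (SD, n = 4) in WT bleomycin lungs and 61.4% ± 3.1 (SD, n = 3) in WT PBS lungs. The share of miR-322-5p was 34.8% ± 1.0 (SD, n = 4) and 26.2% ± 0.79 (SD, n = 4) in R213G bleomycin and PBS lungs, and 35.0% ± 2.0 (SD, n = 4) and 24.2% ± 3.2 (SD, n = 3) in WT bleomycin and PBS lungs. The 2 most abundant strands thus stood closer to each other after bleomycin. Ligation and sequence biases of small RNA libraries act on each miRNA differently, and whether the values were divided by length is not settled (the labels mention RPKM), so shares and ranks across miRNAs describe the deposited values and not molecules.

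By level, miR-351-5p ranked 74 of 818 in R213G bleomycin lungs and 71 in WT bleomycin lungs, against 50 in R213G PBS lungs and 52 in WT PBS lungs. The scarcest member, miR-351-3p, ranked 495 and 506 in R213G and WT bleomycin lungs, against 390 and 393 in R213G and WT PBS lungs. In the order of the group means, both PBS groups stood above both bleomycin groups for 9 of 10 members. The exception was miR-542-3p, with the order R213G PBS, R213G bleomycin, WT PBS and WT bleomycin, in which no neighbours differed beyond the sum of their SDs. For the other members the R213G and WT groups of the same treatment were always neighbours and did not differ beyond that sum.

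The balance of the arms within a hairpin does not depend, beyond the added 1, on a factor common to a whole library, since both strands are read in the same library. Quantile normalization is no such factor, and the arm balance was not computed under it. For Mir322 the 5p strand exceeded the 3p strand by 2.94, 2.86, 2.96 and 2.69 log2 units in R213G bleomycin lungs and by 2.29, 2.37, 2.59 and 2.38 in R213G PBS lungs. For WT lungs the excess was 2.82, 2.96, 2.80 and 2.68 after bleomycin and 1.95, 2.31 and 2.33 after PBS. Every bleomycin library had a larger excess than every PBS library, by 0.46 ± 0.09 (SE) on average in R213G lungs and by 0.61 ± 0.14 (SE) in WT lungs.

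For Mir542 the 3p strand was the more abundant, and the 5p minus 3p value was -2.31, -2.20, -2.67 and -2.33 in R213G bleomycin lungs and -1.42, -1.42, -1.68 and -1.61 in R213G PBS lungs. The WT values were -1.24, -2.08, -2.18 and -2.02 after bleomycin and -1.47, -1.27 and -1.35 after PBS. The R213G groups were apart, by -0.85 ± 0.12 (SE), while in WT bleomycin replicate 1, at -1.24, lay above all 3 PBS libraries while the other bleomycin libraries lay below them, and the difference was -0.52 ± 0.22 (SE). The shift thus had opposite signs in the 2 hairpins, and in both the more abundant strand had, on average, a larger excess after bleomycin.

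In the other hairpins the arm balance of the bleomycin libraries overlapped that of the PBS libraries in both genotypes. The bleomycin minus PBS values of the arm difference were 0.07 ± 0.36 (SE) in R213G lungs and 0.20 ± 0.16 (SE) in WT lungs for Mir351. For Mir503 they were 0.00 ± 0.14 (SE) and 0.09 ± 0.15 (SE), and for Mir450b -0.04 ± 0.12 (SE) and 0.00 ± 0.16 (SE), in R213G and WT lungs. The arm balance was computed for hairpins of this cluster alone. How common such shifts, or differences between genotypes, are among all hairpins is therefore not known.

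**Figure D3:**
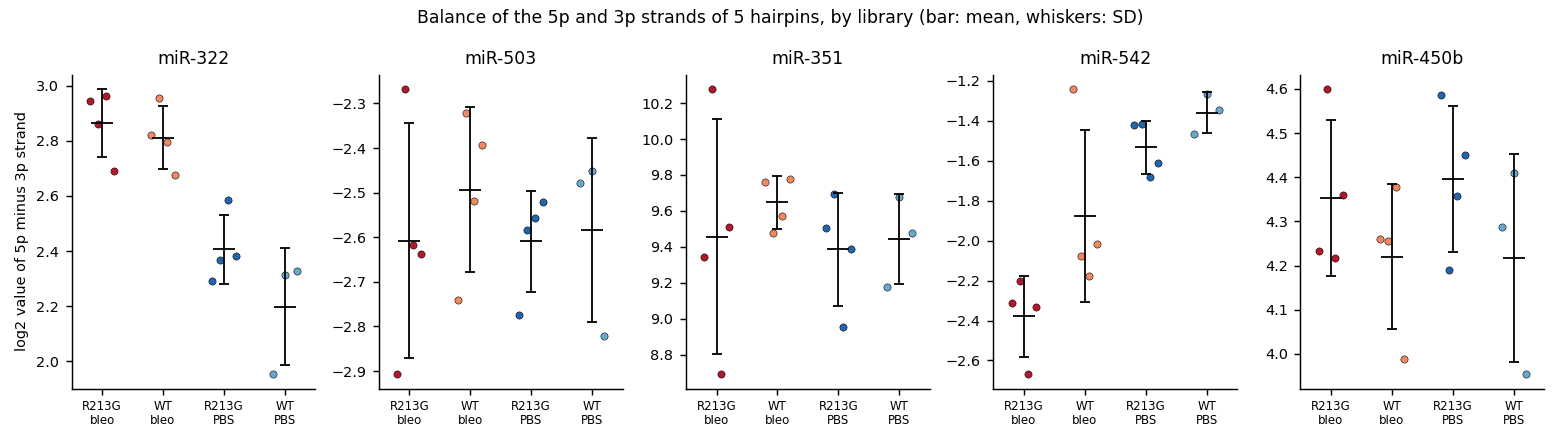
Log2 value of the 5p strand minus that of the 3p strand (vertical axis, own scale in each panel) for 5 hairpins in every library, with R213G bleomycin, WT bleomycin, R213G PBS and WT PBS from left to right; bars are means and whiskers SD. The bleomycin libraries lie above the PBS libraries for miR-322 and below them for miR-542, except WT bleomycin replicate 1 at -1.24.

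Within a group, some members varied together across libraries. The pooled SD between libraries of a group was 0.27 for miR-351-5p and 0.26 for miR-322-3p, while that of their difference was 0.10. For miR-542-5p the SD was 0.20 and that of its difference to miR-351-5p 0.18, whereas for miR-542-3p the SD was 0.26 and that of the difference 0.36. The largest SD of the difference, 0.40, was that of miR-351-3p, the other arm of Mir351, with an own SD of 0.27. For miR-503-5p, miR-450a-5p and miR-450b-3p the difference also had a larger SD than the strand itself. R213G PBS replicate 2 was the highest of its group for 8 of 10 members and WT PBS replicate 2 for 8 of 10, and WT PBS replicate 3 was the lowest of its group for 9 of 10. WT bleomycin replicate 3 was the highest of its group for 7 of 10. The members' mean deviation from their group means was 0.20 in R213G PBS replicate 2 and -0.22 in WT PBS replicate 3. For all tested miRNAs the median deviation in these libraries was 0.03 and 0.09. How often a library was highest or lowest among all tested miRNAs was not counted, and the SDs of differences were not computed for other pairs.

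Measured as the root mean square difference of log2 values over the 15 libraries, each miRNA centred on its own mean, the miRNA most like miR-351-5p among the other 817 was its neighbour miR-322-3p, at 0.16. Then came miR-7046-3p (0.23), the member miR-542-5p (0.24), miR-6980-3p (0.27) and miR-5709-5p (0.28). The non-members among them were scarce, with mean log2 values of 6.57 for miR-7046-3p, 4.58 for miR-6980-3p and 6.04 for miR-5709-5p. Of the other members, miR-450b-5p ranked 7, miR-351-3p 16, miR-450b-3p 20, miR-503-5p 45, miR-322-5p 46, miR-450a-5p 114 and miR-542-3p 231. The measure takes in the bleomycin difference already described, since all 15 libraries enter it.

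miRNAs with the same seed outside the cluster were set beside the members, since they can repress many of the same messenger RNAs. Of 9 miRNAs of the table with the seed of a member, 7 passed the filter. For the seed AGCAGCA these are miR-15a-5p, miR-15b-5p, miR-16-5p, miR-195a-5p and miR-497a-5p, the last of them printed here beside the cluster's own strand.
miR-322-5p: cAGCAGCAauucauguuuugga
miR-497a-5p: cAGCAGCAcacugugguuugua
miR-16-5p: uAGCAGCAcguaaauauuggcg
The family held values of either sign. In R213G lungs the log2 difference was 0.52 ± 0.13 (SE) for miR-15b-5p, 0.14 ± 0.13 (SE) for miR-195a-5p, -0.05 ± 0.08 (SE) for miR-15a-5p, -0.27 ± 0.11 (SE) for miR-497a-5p and -0.31 ± 0.09 (SE) for miR-16-5p. The WT difference was 0.35 ± 0.14 (SE) for miR-15b-5p, 0.13 ± 0.09 (SE) for miR-15a-5p, -0.03 ± 0.10 (SE) for miR-16-5p, -0.09 ± 0.14 (SE) for miR-195a-5p and -0.23 ± 0.12 (SE) for miR-497a-5p. The most abundant of them, miR-16-5p, had a mean log2 value of 18.72 over all libraries.

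For the seed CCCUGAG of miR-351-5p the relatives are miR-125a-5p and miR-125b-5p, abundant miRNAs of mesenchymal cells.
miR-351-5p: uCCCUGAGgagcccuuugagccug
miR-125a-5p: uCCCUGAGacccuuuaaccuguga
miR-125b-5p: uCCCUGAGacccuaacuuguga
Their log2 differences were -0.41 ± 0.08 (SE) and -0.41 ± 0.09 (SE) in R213G lungs and -0.38 ± 0.09 (SE) and -0.45 ± 0.10 (SE) in WT lungs. They had the sign of miR-351-5p with a smaller size.

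**Figure D4:**
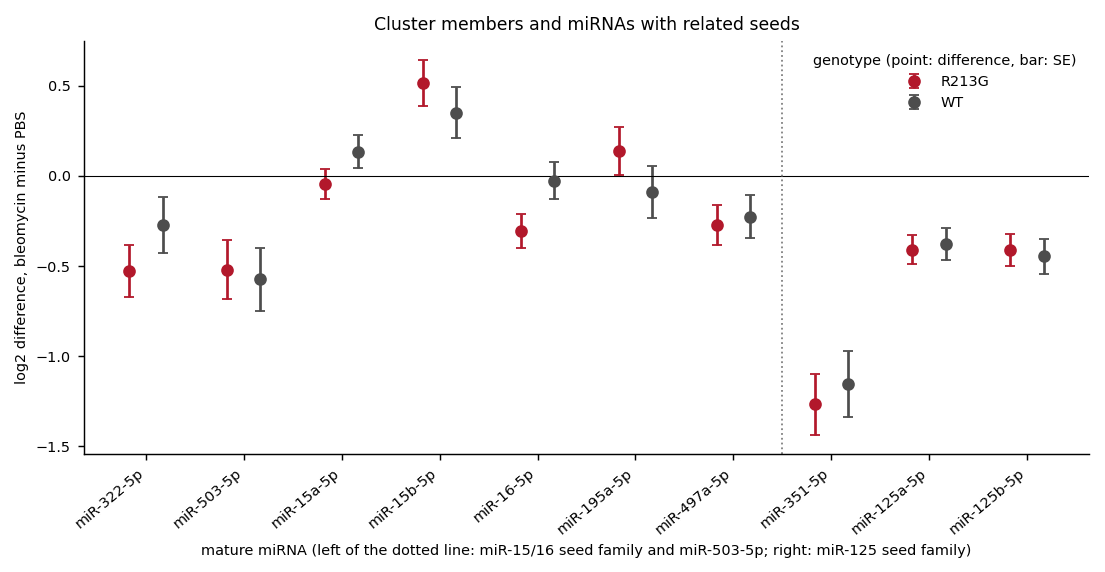
Log2 difference (bleomycin minus PBS, vertical axis) of miR-322-5p, miR-503-5p and the 5 tested miR-15/16 family miRNAs (left of the dotted line) and of miR-351-5p, miR-125a-5p and miR-125b-5p (right of it); points are R213G (left) and WT (right), bars are SE. Of these miRNAs miR-351-5p lies lowest and miR-15b-5p highest in both genotypes.

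Marker miRNAs of other cell types moved with the treatment in part, and their part in the members' values was not tested. The summed level of 5 striated muscle miRNAs (miR-1a-3p, miR-133a-3p, miR-206-3p, miR-208b-3p and miR-499-5p, all 5 in the table and 4 of them past the filter) was 12.09 to 13.12 on the log2 scale in R213G bleomycin lungs and 14.44 to 14.94 in R213G PBS lungs. WT lungs had 13.03 to 13.87 after bleomycin and 14.02 to 16.31 after PBS. The highest value was that of WT PBS replicate 3, the library lowest of its group in 9 of 10 members. The sum follows its most abundant miRNA, miR-133a-3p, which differed by -2.18 ± 0.39 (SE) in R213G and -1.52 ± 0.42 (SE) in WT lungs. In the same order, miR-1a-3p was at -1.62 ± 0.45 (SE) and -0.98 ± 0.48 (SE), and miR-208b-3p at -0.45 ± 0.15 (SE) and -0.56 ± 0.16 (SE). For miR-499-5p the values were -0.03 ± 0.37 (SE) and -0.53 ± 0.40 (SE). Of all listed markers only miR-206-3p was at 0 in any library, namely in 2 of the 4 R213G PBS libraries. The sum of 4 erythroid miRNAs lay at 15.39 to 17.22 in R213G bleomycin lungs and 16.25 to 17.81 in R213G PBS lungs, and at 14.59 to 15.09 in WT bleomycin lungs and 16.51 to 17.78 in WT PBS lungs. The log2 difference of each erythroid miRNA was below 0 in WT lungs. It was -2.31 ± 0.41 (SE) for miR-486a-5p and -2.03 ± 0.47 (SE) for miR-451a. For miR-144-5p it was -1.98 ± 0.40 (SE) and for miR-144-3p -0.98 ± 0.55 (SE). In R213G lungs miR-144-3p was at 0.14 ± 0.51 (SE) and the others below 0, with miR-486a-5p at -1.45 ± 0.38 (SE).

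The sum of 5 smooth muscle and mesenchymal miRNAs lay at 21.21 to 21.59 in R213G bleomycin lungs and 21.55 to 21.79 in R213G PBS lungs, and at 21.32 to 21.62 in WT bleomycin lungs and 21.60 to 21.83 in WT PBS lungs. This sum follows its most abundant miRNA, miR-143-3p, which differed by -0.32 ± 0.10 (SE) in R213G lungs and -0.27 ± 0.11 (SE) in WT lungs. miR-145a-5p was also below 0, at -0.04 ± 0.13 (SE) in R213G and -0.52 ± 0.14 (SE) in WT lungs. The remaining miRNAs of the list had the opposite sign. For miR-214-3p the difference was 0.86 ± 0.12 (SE) in R213G and 0.71 ± 0.13 (SE) in WT lungs. miR-199a-5p was at 0.48 ± 0.10 (SE) and 0.44 ± 0.11 (SE), and miR-199a-3p at 0.35 ± 0.09 (SE) and 0.28 ± 0.10 (SE). For 6 epithelial miRNAs the sum lay at 17.86 to 18.25 and 18.21 to 18.39 in R213G bleomycin and PBS lungs, and at 18.00 to 18.29 and 18.22 to 18.30 in WT bleomycin and PBS lungs. Among them miR-205-5p differed most, by -1.90 ± 0.34 (SE) in R213G and -1.28 ± 0.37 (SE) in WT lungs. Only miR-141-3p was not below 0, at 0.08 ± 0.13 (SE) in R213G and 0.01 ± 0.14 (SE) in WT lungs. The summed level of the 2 endothelial strands of miR-126a overlapped between treatments in both genotypes, but the strands had opposite signs. miR-126a-3p differed by -0.41 ± 0.13 (SE) in R213G lungs, without overlap, and by -0.13 ± 0.14 (SE) in WT lungs. For miR-126a-5p the values were 0.15 ± 0.12 (SE) in R213G and 0.26 ± 0.13 (SE) in WT lungs. The summed level of the 4 leukocyte miRNAs overlapped between treatments in R213G lungs. Of the leukocyte miRNAs, 2 of 4 did not overlap there, with opposite signs. miR-142a-3p lay at 13.37 to 13.91 in R213G bleomycin lungs and 12.73 to 13.06 in R213G PBS lungs. miR-150-5p lay at 15.47 to 16.10 in R213G bleomycin lungs and 16.32 to 16.70 in R213G PBS lungs. Among all 818 tested miRNAs, 142 had every R213G bleomycin library below every R213G PBS library, and 179 had every one above. In WT lungs the leukocyte sum was 17.13 to 17.51 after bleomycin and 16.85 to 16.99 after PBS. There miR-142a-3p differed by 1.20 ± 0.21 (SE) and miR-142a-5p by 0.68 ± 0.12 (SE). The WT difference was smaller for miR-223-3p, at 0.25 ± 0.16 (SE), and for miR-150-5p, at 0.07 ± 0.16 (SE).

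The comparisons of genotype ask whether the EC-SOD variant alters these miRNAs. None of the cluster's members passed. In R213G against WT lungs after bleomycin, 0 of 10 members were called (limma, adjusted p under 0.05), as were 0.0% of all 818 tested miRNAs, and 0 of 10 had an unadjusted p under 0.05, against 97 of 818. The largest difference was that of miR-542-3p, 0.33 ± 0.17 (SE), with an adjusted p of 0.481 by limma (0.343 to 0.887 over the other settings tried), and it was 0.16 without WT bleomycin replicate 1. Its libraries overlapped, at 10.13 to 10.57 in R213G bleomycin lungs and 9.48 to 10.41 in WT bleomycin lungs. For miR-351-5p the difference was -0.11 ± 0.17 (SE, adjusted p = 0.853 by limma), with a 95% confidence interval between -0.47 and 0.25. With quantile normalization it was -0.39, not called. For miR-322-5p the difference was -0.08 ± 0.14 (SE, adjusted p = 0.869 by limma).

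After PBS, 0 of 10 members were called between R213G and WT lungs (limma), as were 0.0% of all tested miRNAs. None of the members had an unadjusted p under 0.05, where 44 of 818 did. The largest difference was that of miR-322-5p, 0.17 ± 0.16 (SE, adjusted p = 0.957 by limma). For miR-351-5p it was 0.01 ± 0.18 (SE), with a 95% confidence interval between -0.38 and 0.39. The median difference of the members was 0.04, against 0.02 for all tested miRNAs, and without WT PBS replicate 3 it was -0.11.

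The interaction asks whether the bleomycin difference differs between R213G and WT mice. It was called for 0 of 10 members (limma), as for 0.0% of all tested miRNAs, with 0 of 10 members and 65 of 818 miRNAs at an unadjusted p under 0.05. The largest values were -0.26 ± 0.21 (SE, adjusted p = 0.796 by limma) for miR-322-5p and 0.24 ± 0.25 (SE, adjusted p = 0.848 by limma) for miR-542-3p. For miR-351-5p the interaction was -0.12 ± 0.25 (SE), and -0.45 with quantile normalization, not called. The 95% confidence interval of a member had a median half-width of 0.48 log2 units, so the precision of these libraries limits what unequal response could be seen. Differences between the genotypes after bleomycin had a median half-width of 0.33, and after PBS of 0.36.

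**Figure D5:**
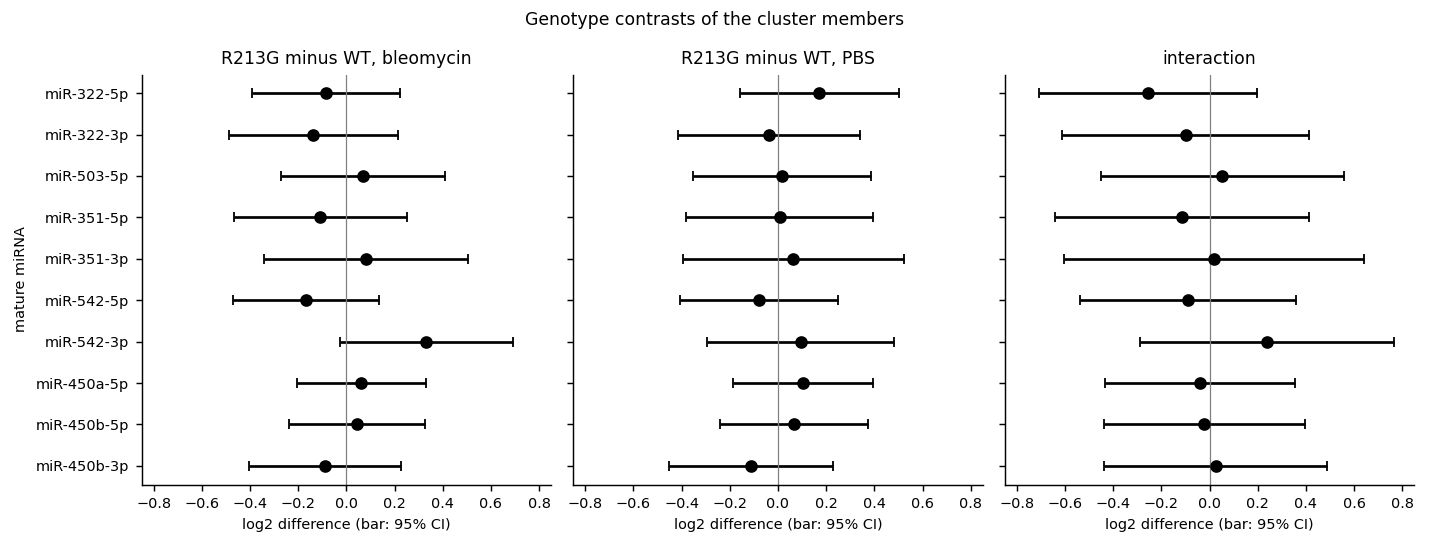
Log2 difference (horizontal axis) of the 10 members for R213G minus WT after bleomycin, R213G minus WT after PBS and the genotype by bleomycin interaction; points are estimates and bars 95% confidence intervals from limma. Every interval includes 0, and the bounds lie between -0.71 and 0.76.

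The arm balance was compared between genotypes for 5 hairpins in each treatment, 10 comparisons in all. After bleomycin the 5p minus 3p value of Mir542 averaged -2.38 ± 0.20 in R213G lungs and -1.88 ± 0.43 in WT lungs (SD, n = 4 each). The difference of -0.50 ± 0.24 (SE) had p = 0.0286 by an exact two-sided permutation test, the smallest that 4 against 4 libraries allow, and an adjusted p of 0.286 over the 10 comparisons. It was lower in 4 of 4 R213G libraries than in every WT library, and it was -0.29 without WT bleomycin replicate 1. The other 9 comparisons had exact p-values of 0.171 to 0.857. With 4 against 3 PBS libraries the smallest possible p is 0.0571.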

How the data were processed

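Total RNA of whole lung was extracted and made into Illumina small RNA libraries, per the labels' protocols. Bowtie2 2.3.2, SAMtools 1.9 and edgeR are named in the submitters' processing notes, without their role. No source used here names a genome build or a miRBase release. The authors deposited 1 table with log2 values per mature miRNA and library. From the values, these were taken as log2 of 1 plus a normalised count; the labels mention RPKM, and whether a division by length was made is not settled. Differences within a miRNA between libraries do not depend on it beyond the added 1. Read counts and depths are unknown, so no count test, counting interval or floor was used. The authors' own fold changes and tests in the table were not used.

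For the fit (limma 3.58.1 in R 4.3.3) the 15 libraries entered together with a mean for each of the 4 groups, and the prior variance followed the intensity. It took miRNAs above 5 equalized counts in at least 3 libraries (818 of 1424). Adjustment of the limma p-values was that of Benjamini and Hochberg, across all 818. The fit was tried on simulated data, with planted differences larger than any genotype difference of the members and with independent spread for each miRNA. That run does not measure the power for differences of the members' size. Arm balances were compared by exact permutation (scipy 1.17.1). Other settings were the filter, the pseudocount, the scaling, the trend, array weights, the compared groups alone, a replicate term and each library left out.

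The members, lists and tests were chosen with earlier results of these data known. Named miRNAs are the 10 members, the other strands of the locus, tested miRNAs with a member's seed, the 5 most like miR-351-5p (the most abundant member) and the marker lists. Of the 1424 names, 1199 matched a RefSeq mature sequence (GRCm38.p6).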

Additional observations from a re-analysis of the deposited data

Results flagged for a closer look

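In WT bleomycin lungs miR-450b-3p stood at 5.98 in replicate 1, apart from the other 3 libraries of the group at 6.22 to 6.27. Its gap to the nearest of them was 0.837 of the group's range, above Dixon's 95% critical value for 4 libraries. Of 30 such groups (10 members in 3 groups of 4 libraries) this was the 1 that stood out, and chance flags about 1 in 20.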

How the results depend on the processing

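All 10 members stayed below 0 in both bleomycin comparisons under the other scalings, the other pseudocount, array weights and a replicate block. The filter, the trend and the compared groups alone cannot change these values, which are differences of group means. Leaving out libraries turned only miR-542-3p in R213G lungs, which ranged from -0.14 to 0.0042. Members without overlap numbered 8 to 9 in R213G lungs and 7 to 9 in WT lungs. Equal library medians moved the median of all tested miRNAs by 0.13 in R213G and 0.12 in WT lungs. With quantile normalization miR-351-5p was -0.71 in WT lungs, and its genotype difference after bleomycin was -0.39 and its interaction -0.45. No genotype test of a member was called under any alternative, where the lowest adjusted p by limma was 0.343, for miR-542-3p after bleomycin. Whether the replicate numbers pair the libraries is not settled. Of 21 same-numbered pairs 9 correlated above 0.1 (range -0.14 to 0.26), and differently numbered pairs were not compared. With a replicate block 0 members were called in each genotype comparison, and the interaction of miR-351-3p was -0.0090. A block does not enter the counts without overlap. The interaction could not be fitted on the compared groups alone.

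The genotype estimates near 0 changed sign, and the cause was not tested. With quantile normalization miR-450b-5p after bleomycin was -0.020, miR-503-5p after PBS -0.016 and the interaction of miR-450b-3p -0.0072. With array weights the values after bleomycin were -0.013 for miR-503-5p and -0.0051 for miR-450a-5p, and after PBS -0.065 for miR-503-5p, -0.044 for miR-351-5p and -0.017 for miR-351-3p; the interactions were 0.0083 for miR-351-5p, 0.0022 for miR-450b-5p and -0.046 for miR-450b-3p. Leaving out each library in turn, the differences after bleomycin ranged from -0.052 to 0.16 for miR-503-5p, -0.25 to 0.0080 for miR-351-5p, -0.056 to 0.21 for miR-351-3p, -0.063 to 0.13 for miR-450a-5p and -0.043 to 0.12 for miR-450b-5p. After PBS the median of the members ranged from -0.11 (without WT PBS replicate 3) to 0.11, miR-322-3p from -0.15 to 0.10, miR-503-5p from -0.13 to 0.12, miR-351-5p from -0.14 to 0.12, miR-351-3p from -0.10 to 0.24, miR-542-5p from -0.23 to 0.056, miR-542-3p from -0.061 to 0.18 and miR-450b-5p from -0.069 to 0.16. The interaction ranged from -0.24 to 0.017 for miR-322-3p, -0.068 to 0.20 for miR-503-5p, -0.26 to 0.030 for miR-351-5p, -0.16 to 0.18 for miR-351-3p, -0.22 to 0.058 for miR-542-5p, -0.17 to 0.052 for miR-450a-5p, -0.12 to 0.11 for miR-450b-5p and -0.078 to 0.16 for miR-450b-3p. The arm balance between genotypes ranged from -0.14 to 0.040 for Mir503 and -0.19 to 0.086 for Mir351 after PBS, and from -0.47 to 0.063 for Mir351 after bleomycin. Read depth is not known, so counting error of scarce strands such as miR-351-3p could not be set apart from the spread between libraries.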
